A study of Rattus norvegicus with 7 samples.

Results

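The genes described here code for proteins of the spliceosome core and for splicing factors, and their transcripts were measured on 7 Affymetrix arrays in NRK-52E, a line of epithelial cells established from rat kidney. They were taken as every probe set (a group of short probes read as 1 value) whose single annotated gene symbol begins with Lsm, Snrp, Sf3a, Sf3b or Srsf, or with Rbm and a digit. The rule found 123 probe sets of 78 genes among the 31099 on the array. Of these, 41 probe sets of 31 genes were classed by symbol as the core of the small nuclear ribonucleoproteins (snRNPs, symbols Lsm, Snrp, Sf3a and Sf3b). Another 20 of 11 genes are SR proteins (Srsf) and 60 of 34 genes are Rbm regulators. The other 2, Lsmem1 and Lsmem2, share the letters and are no Lsm proteins. The core class, set by symbol alone, also holds Lsm proteins that work outside the spliceosome, such as Lsm1, Lsm10, Lsm11 and Lsm14a, described below. The pseudogene Srsf7-ps4 is counted among the Srsf symbols.

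Cells kept with 10% serum were plated at 20% confluence, received 100 pmol of siRNA per ml by lipofection and were harvested 48 h later. Cultures given siRNA 3488 against Adamts16, a secreted metalloprotease, are on 2 arrays, cultures given siRNA 2600 against the same transcript on 2, and cultures given a scrambled siRNA, the control, on 3. All 7 cultures were therefore transfected, and they share 1 cell line. The antisense strands of the duplexes are shown because they tell the groups apart; capitals mark the seed, bases 2 to 8.
siRNA 3488: tTTCCGGAgacgtacttct
siRNA 2600: tTGCGCACagaaatatagg
scrambled siRNA: aTTACCGAgcacattggagg

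Introns are cut from messenger RNA precursors by the spliceosome, which assembles anew on each intron from snRNPs built around small nuclear RNAs. Sm proteins form a ring on most of these RNAs, a related ring of Lsm proteins sits on the U6 RNA, and the Sf3a and Sf3b complexes help the U2 particle hold the branch point. SR proteins bind exons and recruit the machinery, and many Rbm proteins tune which exons are used; SR protein genes are also known to control their own transcripts through alternative splicing.

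The deposited signals were analysed on a log2 scale, and limma tested 18625 probe sets, those with the highest 60% of mean signals. Calls were made at an adjusted p under 0.05, and a change is given ± its standard error. Of the 123 probe sets, 102 of 69 genes were tested. The other 21 lay between percentiles 5.01 and 33.6 of the array on average, with no single signal above 98.9, among them all 4 probe sets of Rbm24 and both of Rbm47. Array medians ran from 126.1 to 139.6. On the first principal component of all probe sets (39.2% of the variance) siRNA 3488 arrays lay at -22.3 and -37.2, siRNA 2600 arrays at 17.7 and -6.72 and scrambled arrays at 11.4 to 20.1, so that siRNA 2600 replicate 1 stood among the control arrays. The single Adamts16 probe set gave 12.1 and 40.4 under siRNA 3488, 21.4 and 2.42 under siRNA 2600 and 8.68, 7.18 and 18.9 under the scrambled siRNA, at percentile 15.6 on average. Taking both siRNAs together it changed by 0.25 in log2 units, with a 95% interval of -1.78 to 2.29. An exact two-sided permutation test gave p = 0.857, where 0.0571 is the smallest possible. The knockdown could therefore not be read from these arrays. Of 11 kidney epithelium markers, 4 were bright enough to test (Krt8 with 5698 to 7147 and Tjp1 with 5901 to 6500 over all arrays, and the dimmer Krt19 and Aqp1), while Krt18, Cdh1, Epcam and Cdh16 had no signal above 32.4 and Cldn2, Pax2 and Pax8 were also too dim. Of 10 mesenchymal markers 6 could be tested, Vim and Col3a1 among the brightest, and Dcn, Pdgfra, Thy1 and Cdh2 were too dim. With 2 or 3 arrays in a group, precision is limited throughout.

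Splicing genes moved in both directions with siRNA 3488. Against the scrambled control, 16 of the 102 tested probe sets rose and 9 fell, or 15.7% and 8.82%; over all tested probe sets 6.89% rose and 8.74% fell. By class, the balance of rises and falls was uneven. In the snRNP core 13 of 38 probe sets rose (34.2%) and 1 fell, with a median log2 change of 0.16. Among the SR proteins 2 of 18 rose and 1 fell (median 0.08), and among the Rbm regulators 1 of 45 rose and 7 fell (15.6%; median -0.11). The median of all tested probe sets was -0.06. Under quantile normalization, median centring and cyclic loess the Rbm median was -0.06, -0.01 and -0.05, the core median 0.14, 0.25 and 0.15 and that of all tested probe sets -0.02, 0.03 and -0.01. The mean deviation of the core from the control mean was 0.17 and 0.18 under siRNA 3488, 0.03 and 0.07 under siRNA 2600 and -0.02 to 0.01 among the control arrays themselves. The Rbm probe sets deviated by -0.13 and -0.22 with siRNA 3488, by -0.08 and -0.07 with siRNA 2600 and by -0.05 to 0.04 with the control. These arrays measure whole cultures, so a change in RNA per cell and a change in the share of cells that hold it cannot be told apart.

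**Figure D1:**
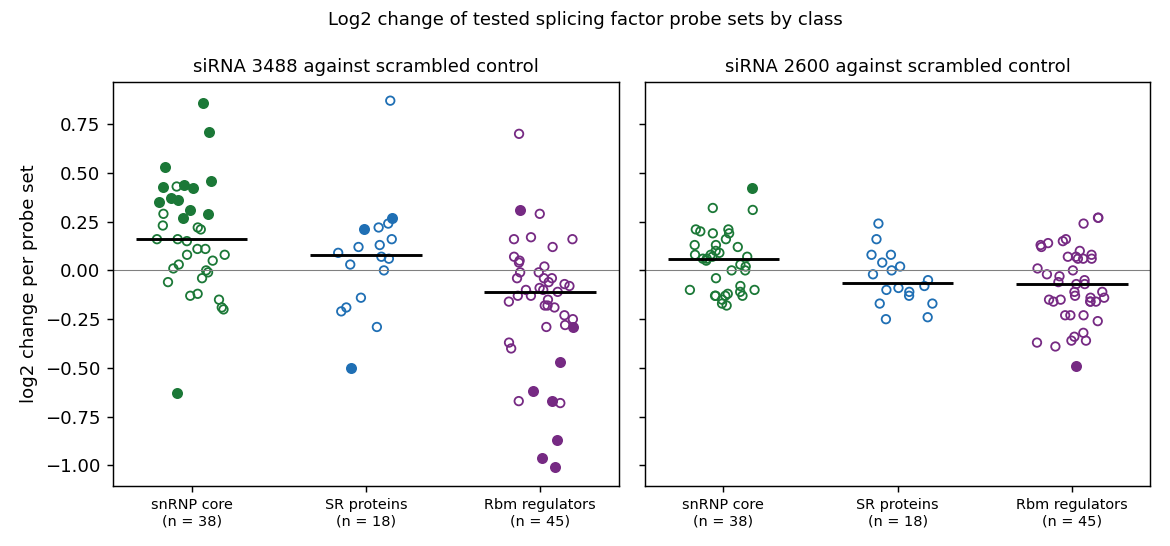
Each point is the log2 change of 1 tested probe set (vertical axis) by class (horizontal axis), with siRNA 3488 on the left and siRNA 2600 on the right, both against the scrambled control; filled points were called, open points were not, and black lines are class medians. With siRNA 3488 most filled snRNP core points lie above 0 and most filled Rbm points below it, while with siRNA 2600 1 point is filled above 0 and 1 below.

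Signal strength went with the direction of change, and this touches every count with siRNA 3488. Among the brightest 10% of all tested probe sets the median log2 change was 0.15, with 37.4% called higher; among the dimmer 50% it was -0.11, with 1.64% called higher. In the brightest 25% of tested probe sets, 9 of 20 snRNP core probe sets rose (45%), where 19.6% of all in that range did. Of 15 Rbm probe sets in the same range 1 rose and 3 fell, where 9.23% of all in it fell. Signal was not matched within this range. The median mean log2 signal was 11.67 for its core probe sets, 11.36 for its Rbm probe sets and 11.03 for all in it. The 18 spiked hybridisation controls, which hold no cell RNA, also deviated from their control mean by a median of 0.34 and 0.71 under siRNA 3488, -0.08 and 0.13 under siRNA 2600 and -0.06 to 0.03 among the control arrays. The ratio of 3′ to 5′ actin signal was 1.96 and 1.94 with siRNA 3488, 1.83 and 1.81 with siRNA 2600 and 1.74 to 1.79 with the control. Of 8 tested mesenchymal marker probe sets 4 rose. The list's summed signal was 46260 to 52339 with siRNA 3488, 38349 to 40376 with siRNA 2600 and 35920 to 37012 with the control. Of 6 epithelial ones none was called, with sums of 13741 to 14206 under siRNA 3488, 12943 to 12986 under siRNA 2600 and 12916 to 13809 under the scrambled siRNA. Of the leukocyte markers Cd68 rose, while the defining Ptprc, Itgam and Cd3e were too dim to test. The part of these shifts in the changes of single genes was not tested. Quantile normalization, which forces all arrays to 1 distribution, kept the call of 8 of the 16 probe sets that rose and of 7 of the 9 that fell.

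**Figure D2:**
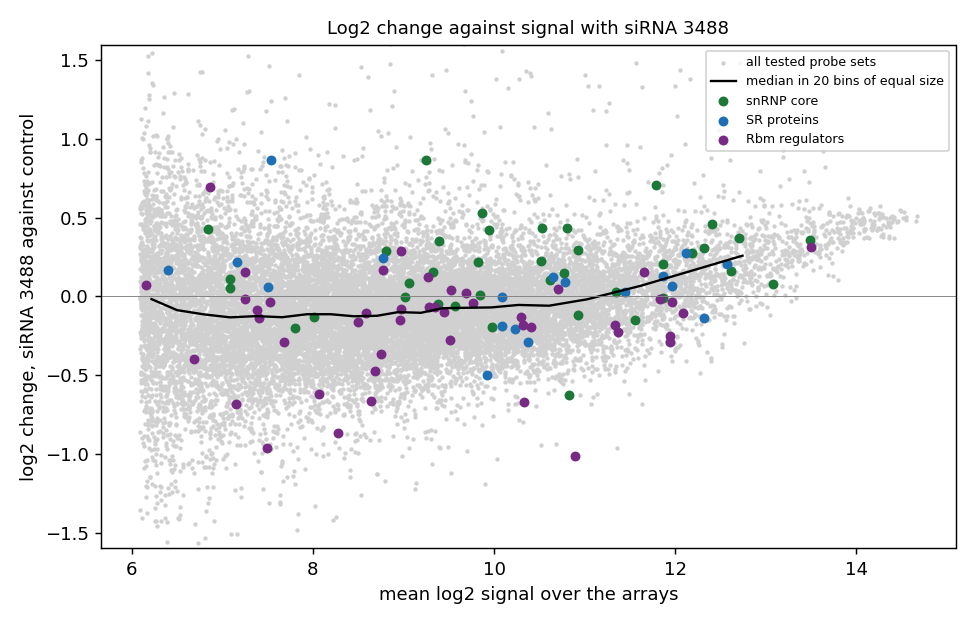
The log2 change with siRNA 3488 against the control (vertical axis) is plotted against the mean log2 signal over the 7 arrays (horizontal axis) for all tested probe sets in grey, with 45 beyond 1.6 in either direction not shown, and for the 3 splicing classes in colour; the black line is the median in 20 bins. The line climbs at high signal, and 28 of the 38 green snRNP core points lie above 0, against 11 of the 45 purple Rbm points.

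The Sm ring is the protein collar of most spliceosomal snRNPs. With siRNA 3488, 5 of its 7 tested probe sets rose (71.4%) and none fell. The ring's median change was 0.36, and 0.13 after quantile normalization. Over all tested probe sets 6.89% rose, and among the brightest 10% of them 37.4% did. The median mean log2 signal was 11.87 for the ring and 12.06 for that brightest group. How much of the ring's count goes with its signal strength was not tested. Snrpf gave 4869 and 4767 under siRNA 3488, 3231 and 3554 under siRNA 2600 and 2976, 3081 and 2807 under the scrambled siRNA. Both siRNA 3488 arrays stood above all 5 others, by 0.71 ± 0.07 (adjusted p = 0.0013) against the control. Snrpd1, by probe set 1379320_at, gave 893 and 896 under siRNA 3488, 432 and 752 under siRNA 2600 and 468, 502 and 506 under the scrambled siRNA. Its siRNA 3488 arrays were nearly equal and highest, while siRNA 2600 replicate 2 lay well above replicate 1. Against the control it changed by 0.86 ± 0.18 (adjusted p = 0.0135).

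The ring's other members moved less. Snrpd2 gave 7277 and 8505 under siRNA 3488, 6677 and 6362 under siRNA 2600 and 5697, 6417 and 6149 under the scrambled siRNA, a change of 0.37 ± 0.08 (adjusted p = 0.0142). Snrpe, the brightest of the core, gave 12229.7 and 14531 under siRNA 3488, 10775 and 12106 under siRNA 2600 and 10023, 10853 and 10370.3 under the scrambled siRNA, a change of 0.36 ± 0.08 (adjusted p = 0.0206). For both, the siRNA 3488 arrays lay above all control arrays, with replicate 2 the higher. Snrpb gave 5386 and 5318 under siRNA 3488, 4222 and 4612 under siRNA 2600 and 4514, 4195 and 4581 under the scrambled siRNA, a change of 0.27 ± 0.07 (adjusted p = 0.0224). This gene lies outside the rule for named genes and is given because it completes the ring's calls. Snrpd3 did not pass, with 4149.7 and 3949 under siRNA 3488, 3973 and 3647 under siRNA 2600 and 3603, 3600.2 and 3334 under the scrambled siRNA and a change of 0.21 ± 0.07 (adjusted p = 0.0649), although its siRNA 3488 arrays also stood above the control arrays. After quantile normalization the changes of Snrpd2, Snrpe and Snrpb were no longer called and that of Snrpe was -0.03, while Snrpf and Snrpd1 were called under all 4 scalings tried. A probe set that shares its match between Snrpg, the remaining Sm gene, and related loci also rose, with 7782 and 9249.7 under siRNA 3488, 7554 and 7397 under siRNA 2600 and 6778, 7398 and 7109.7 under the scrambled siRNA, but it names no single gene.

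Among Lsm proteins, 4 of 15 tested probe sets rose with siRNA 3488 and none fell (median 0.15). The share that rose was 26.7%, against 6.89% over all tested probe sets. All 4 belong to genes of the ring on U6 RNA. Lsm2 gave 1131 and 1106 under siRNA 3488, 1049 and 1029 under siRNA 2600 and 776, 738 and 810.0 under the scrambled siRNA. All 4 siRNA arrays lay above all 3 control arrays, and the change with siRNA 3488 was 0.53 ± 0.08 (adjusted p = 0.00376). Lsm3 gave 2030.5 and 2301 under siRNA 3488, 1739 and 1748 under siRNA 2600 and 1668, 1595 and 1535 under the scrambled siRNA, a change of 0.44 ± 0.07 (adjusted p = 0.00685). Lsm4 gave 1163 and 1171 under siRNA 3488, 1039.8 and 953 under siRNA 2600 and 846, 951 and 824 under the scrambled siRNA, a change of 0.42 ± 0.09 (adjusted p = 0.0121). In both, the siRNA 2600 arrays lay between the siRNA 3488 and control arrays. Lsm8, the member that sets the nuclear ring apart from the cytoplasmic one, gave 2160.1 and 2283 under siRNA 3488, 1787 and 2053 under siRNA 2600 and 1777, 1859 and 1796 under the scrambled siRNA, a change of 0.29 ± 0.08 (adjusted p = 0.0268). It too lies outside the rule for named genes.

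The remaining Lsm genes were not called. Lsm1, which takes the place of Lsm8 in the cytoplasmic ring that works in messenger RNA decay, changed by 0.23 ± 0.07 (adjusted p = 0.0564) and became a call under quantile normalization, median centring and cyclic loess. Lsm5 changed by 0.15 ± 0.09 (adjusted p = 0.263) and Lsm7 by 0.22 ± 0.10 (adjusted p = 0.179), both ring members with overlapping siRNA 3488 and control arrays. Lsm10 and Lsm11, parts of the U7 particle that trims histone messenger RNAs, gave changes between 0.01 and 0.11, and the 2 probe sets of Lsm14a, a protein of cytoplasmic RNA granules, gave -0.06 and -0.01. The calls of Lsm2, Lsm3, Lsm4 and Lsm8 were kept under quantile normalization, median centring and cyclic loess.

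Proteins particular to the U1 and U2 particles rose in part. Snrpa, the U1 protein that grips a stem-loop of U1 RNA, gave 754 and 785 under siRNA 3488, 755 and 646 under siRNA 2600 and 585, 665 and 562 under the scrambled siRNA, a change of 0.35 ± 0.11 (adjusted p = 0.0478). Snrpb2, its relative on U2 RNA, gave 1633 and 1897 under siRNA 3488, 1384 and 1608 under siRNA 2600 and 1325, 1266 and 1318 under the scrambled siRNA, a change of 0.43 ± 0.09 (adjusted p = 0.0122). In both genes the siRNA 3488 arrays lay above the control arrays, and in Snrpb2 the siRNA 2600 arrays did as well. Snrpa1, the partner of Snrpb2, changed by 0.00 ± 0.13 (adjusted p = 0.994), with a 95% interval of -0.28 to 0.28.

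In the U2-bound Sf3b complex 2 of 9 tested probe sets rose (22.2%) and 1 fell (11.1%), close to the 19.6% and 9.23% among the brightest 25% of all tested probe sets. Its median change of 0.08 turned to -0.04 after quantile normalization and -0.02 after cyclic loess. The 2 that rose encode small subunits. Sf3b6, which contacts the branch-point adenosine, gave 6438 and 7101 under siRNA 3488, 4815 and 5476 under siRNA 2600 and 4349, 5397 and 5051 under the scrambled siRNA, a change of 0.46 ± 0.10 (adjusted p = 0.0129). Sf3b5 gave 5643 and 6068 under siRNA 3488, 4701 and 5269.8 under siRNA 2600 and 4364, 4904 and 4939.7 under the scrambled siRNA, a change of 0.31 ± 0.08 (adjusted p = 0.0268). Both lost the call after quantile normalization. The probe set that fell was 1382691_at of Sf3b1, the large scaffold subunit, described with its other probe sets further on. Sf3b2, Sf3b3 and Sf3b4 changed by -0.15 to 0.16 with no call, and none of the 4 Sf3a probe sets was called (Sf3a3 0.11 ± 0.07, adjusted p = 0.362).

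**Figure D3:**
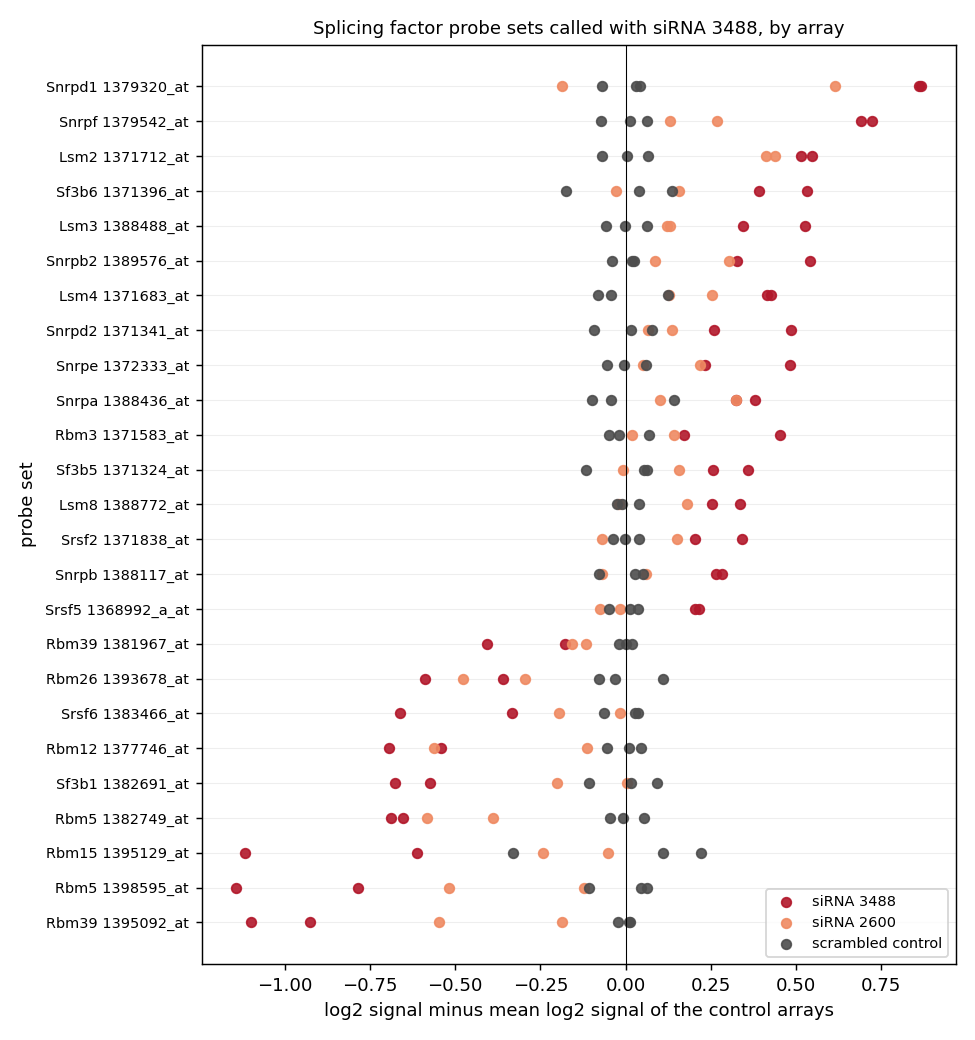
Each row is 1 of the 25 probe sets called with siRNA 3488, and each point 1 array, placed by its log2 signal minus the mean log2 signal of the control arrays (horizontal axis). The siRNA 3488 points of each row lie outside the range of its control points, and most siRNA 2600 points lie between them or among the control points.

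The start regions of the genes were read from RefSeq promoters of build GRCr8, 250 bases before to 50 after the annotated start, which were at hand for 68 of the 78 genes. The letters CCGGAAG, the core that ETS transcription factors bind, occurred on either strand in 20 of these 68 (29.4%), against 19.4% of 8402 genes with a tested probe set and 9.22% of all 27457 promoters. They stood in 10 of 28 core genes (35.7%), 4 of 10 SR genes (40%) and 6 of 29 Rbm genes (20.7%). Of the 16 genes with a probe set that rose with siRNA 3488, 8 held them (Lsm8, Rbm3, Sf3b6, Snrpb, Snrpb2, Snrpd1, Snrpe and Srsf5), and of 6 genes with one that fell and a promoter at hand, 1 did (Rbm15). The NRF1 consensus stood in 8.82% of the 68, against 3.09% and 1.36%, and the YY1 letters AAGATGGCG in 7.35%, against 4.19% and 1.93%. No motifs of different kinds overlapped in these promoters. A match describes the letters and is no evidence of binding. The promoters of Sf3b6, Snrpb2 and Snrpe are printed. After Snrpd1, which is not printed, these 3 had the largest called rises with siRNA 3488 among core genes holding the ETS letters. Each holds the letters at least 2 times. Capitals mark ETS and NRF1 matches on either strand.
Sf3b6, chr6:33545245-33545544, plus strand: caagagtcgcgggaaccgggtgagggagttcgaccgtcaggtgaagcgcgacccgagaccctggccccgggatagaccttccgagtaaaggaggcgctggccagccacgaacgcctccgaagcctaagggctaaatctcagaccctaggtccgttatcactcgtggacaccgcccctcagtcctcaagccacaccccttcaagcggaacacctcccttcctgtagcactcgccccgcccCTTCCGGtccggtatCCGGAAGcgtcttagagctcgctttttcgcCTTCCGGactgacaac
Snrpb2, chr3:150852584-150852883, plus strand: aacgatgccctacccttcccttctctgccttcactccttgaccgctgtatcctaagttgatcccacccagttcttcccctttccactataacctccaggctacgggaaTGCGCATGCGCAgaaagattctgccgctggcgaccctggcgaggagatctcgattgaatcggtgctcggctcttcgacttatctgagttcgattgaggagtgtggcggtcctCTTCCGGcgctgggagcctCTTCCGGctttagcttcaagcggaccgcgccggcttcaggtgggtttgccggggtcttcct
Snrpe, chr13:47609202-47609501, minus strand: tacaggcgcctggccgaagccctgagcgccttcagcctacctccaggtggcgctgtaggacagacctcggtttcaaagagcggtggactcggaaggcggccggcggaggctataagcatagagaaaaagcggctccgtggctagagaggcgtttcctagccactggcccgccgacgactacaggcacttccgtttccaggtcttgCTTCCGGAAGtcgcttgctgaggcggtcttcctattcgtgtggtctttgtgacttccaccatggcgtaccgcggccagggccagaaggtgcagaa
Positions are counted from the annotated start used for each window, with earlier bases negative. The first bases of the ETS matches lie at -11, 5 and 35 in Sf3b6 and at -30 and -11 in Snrpb2. In Snrpe they lie at -45 and -42, where matches on opposite strands share bases. The RefSeq gene spans of Snrpb2 (from 150852814) and Snrpe (from 47609390 on the minus strand) begin earlier than these starts, so their positions depend on the start chosen. The NRF1 match of Snrpb2, which reads alike on both strands, begins at -142.

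Few SR protein probe sets passed the test with siRNA 3488. Srsf5, the brightest, gave 6840.3 and 6785 under siRNA 3488, 5835 and 5593 under siRNA 2600 and 5702, 5946 and 6048 under the scrambled siRNA. Its siRNA 3488 arrays were highest and the others overlapped; the change was 0.21 ± 0.06 (adjusted p = 0.0375), and after quantile normalization it was 0.00. Srsf2, a regulator of exon inclusion, gave 4818 and 5303 under siRNA 3488, 3989 and 4644 under siRNA 2600 and 4176, 4074 and 4301 under the scrambled siRNA by its brighter probe set, a change of 0.27 ± 0.08 (adjusted p = 0.0393), and 0.09 ± 0.11 (adjusted p = 0.622) by its other; it lies outside the rule for named genes. Srsf1, the founding member of the family, was not called by either probe set (0.07 ± 0.06 and -0.19 ± 0.09, adjusted p = 0.47 and 0.183). Srsf3 gave 264 and 278 under siRNA 3488, 129 and 238 under siRNA 2600 and 105, 158 and 197 under the scrambled siRNA by the 1 probe set that names it alone, a large but uncalled change of 0.87 ± 0.30 (adjusted p = 0.074). A brighter probe set that it shares with another locus gave 8414 and 9107 under siRNA 3488, 7805 and 8093 under siRNA 2600 and 7116, 7240.4 and 7333 under the scrambled siRNA and was called higher. A further shared Srsf3 probe set, 1376252_at, changed by 0.04 ± 0.09 (adjusted p = 0.797) and was not called. Srsf10 was not called by its brightest probe set, at -0.29 ± 0.09 (adjusted p = 0.0518), whereas 3 others gave 0.06 to 0.24. Srsf4, Srsf9 and Srsf11 were not called, with changes between -0.14 and 0.12. The dim Srsf7 was poorly measured, at 0.16 ± 0.45 with a 95% interval of -0.84 to 1.17.

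Of the 9 falls with siRNA 3488 most were in Rbm regulators, the largest class, where 7 of 45 tested probe sets fell, in 5 genes. That is 15.6%, against 8.74% of all tested probe sets. Rbm5, a regulator of alternative splicing of cell death genes, fell by 2 of its 3 probe sets. Probe set 1382749_at gave 1026 and 1002 under siRNA 3488, 1233 and 1079 under siRNA 2600 and 1676, 1564 and 1605 under the scrambled siRNA. The groups did not overlap, all 4 siRNA arrays lay below the control arrays, and the change was -0.67 ± 0.08 (adjusted p = 0.00206). Probe set 1398595_at gave 135 and 105 under siRNA 3488, 213 and 162 under siRNA 2600 and 239, 215 and 242 under the scrambled siRNA, a change of -0.96 ± 0.19 (adjusted p = 0.0107). Rbm39, a relative of the splicing factor U2af2, fell by 2 of 5 probe sets. Probe set 1395092_at gave 1313 and 1164 under siRNA 3488, 2193 and 1707 under siRNA 2600 and 2456, 2515 and 2519 under the scrambled siRNA, which put all siRNA 3488 arrays below all siRNA 2600 arrays and these below the control. Its change was -1.01 ± 0.10 (adjusted p = 0.00138). Probe set 1381967_at gave 3784 and 3235 under siRNA 3488, 3841 and 3952 under siRNA 2600 and 4227, 4288 and 4338 under the scrambled siRNA, a change of -0.29 ± 0.07 (adjusted p = 0.0243).

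Rbm15, part of the complex that methylates adenosines in messenger RNA, fell by probe set 1395129_at, with 248 and 175 under siRNA 3488, 366 and 321 under siRNA 2600 and 442, 409 and 301 under the scrambled siRNA and a change of -0.87 ± 0.20 (adjusted p = 0.017). Control replicate 3 lay closest to the siRNA 3488 arrays. Rbm12, an RNA-binding protein, gave 201 and 223 under siRNA 3488, 300.0 and 219.7 under siRNA 2600 and 327, 335 and 313 under the scrambled siRNA, a change of -0.62 ± 0.16 (adjusted p = 0.026). Rbm26, a zinc finger RNA-binding protein, fell by probe set 1393678_at with 381 and 325 under siRNA 3488, 398 and 351 under siRNA 2600 and 463, 526 and 478 under the scrambled siRNA, a change of -0.47 ± 0.12 (adjusted p = 0.027). Its other 2 probe sets gave -0.25 ± 0.10 (adjusted p = 0.119) and -0.68 ± 0.24 (adjusted p = 0.0836). All 3 Rbm26 probe sets had both siRNA 3488 arrays below the control arrays. Rbm12 and Rbm26 lost their calls after quantile normalization, median centring and cyclic loess, while Rbm5, Rbm15 and Rbm39 1395092_at kept theirs under all.

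One Rbm gene rose. Rbm3, induced by cold and the brightest of the class, gave 12047 and 14627 under siRNA 3488, 10837 and 11790.0 under siRNA 2600 and 10337, 11217 and 10541 under the scrambled siRNA, a change of 0.31 ± 0.09 (adjusted p = 0.0353) that was -0.06 after quantile normalization. Most other regulators were not called. Rbm8a, a core protein of the exon junction complex, changed by 0.16 ± 0.06 (adjusted p = 0.0995) with its brighter probe set. Rbm17, which helps choose splice sites, changed by -0.18 ± 0.08 (adjusted p = 0.132), Rbm25, which works with the U1 particle, by -0.18 ± 0.08 (adjusted p = 0.154), and Rbm10 and Rbm6, relatives of Rbm5, by 0.02 ± 0.09 (adjusted p = 0.904) and -0.04 ± 0.09 (adjusted p = 0.787). Rbm7, a partner of the nuclear RNA exosome, had its largest change at 0.70 ± 0.28 (adjusted p = 0.121) with both siRNA 3488 arrays above the control arrays. In 21 of the 45 Rbm probe sets both siRNA 3488 arrays lay below all control arrays, and in 4 above; over all tested probe sets 31.1% lay below and 19.2% above. In the snRNP core 19 of 38 lay above and 4 below.

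Different probe sets of 1 gene disagreed in some cases. Several probe sets were tested for 22 of the genes, giving 33 pairs of a probe set with the brightest of its gene. In 11 of the 22 genes the changes with siRNA 3488 took both signs, in some with values near 0, as in Rbm18 (0.05 and -0.07). How often this occurs over all genes of the array was not counted. The difference in change within a pair was tested over all 4040 such pairs of the array, of which 1.61% were called with siRNA 3488, 58 of 65 of them because the dimmer probe set was the lower. Of the 33 pairs, 4 were called, in Rbm39, Sf3b1 and Rbm5, all with the dimmer lower; 0 were called without siRNA 3488 replicate 2 or control replicate 2, 1 without control replicate 1 and 2 without control replicate 3. Probe positions within transcripts are not analysed here, and signals of different probe sets are not compared as amounts of RNA.

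For Sf3b1, probe set 1382691_at gave 1413 and 1317 under siRNA 3488, 2111 and 1830.0 under siRNA 2600 and 2242, 2127 and 1954 under the scrambled siRNA. It fell, with a change of -0.63 ± 0.09 (adjusted p = 0.00345) and the siRNA 3488 arrays below all others. The brighter 1390234_at gave 9108 and 9236 under siRNA 3488, 8147 and 8317 under siRNA 2600 and 8316, 8882 and 8909.5 under the scrambled siRNA, a change of 0.08 ± 0.06 (adjusted p = 0.406). Probe set 1389840_at gave 6633 and 6799 under siRNA 3488, 6382 and 6186 under siRNA 2600 and 6141, 6205 and 5657 under the scrambled siRNA, a change of 0.16 ± 0.06 (adjusted p = 0.103). On these the siRNA 3488 arrays were the highest of the 7. The difference between 1382691_at and 1390234_at was -0.70 ± 0.11 (adjusted p = 0.0253). After quantile normalization the other 2 probe sets changed sign, to -0.20 (adjusted p = 0.0152) for 1390234_at and -0.04 for 1389840_at, while 1382691_at was still called lower.

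For Rbm39, the brightest probe set, 1399101_at, gave 4481 and 4029 under siRNA 3488, 4307 and 3983 under siRNA 2600 and 4753, 4545 and 4415 under the scrambled siRNA, a change of -0.10 ± 0.07 (adjusted p = 0.338). The next, 1398993_at, gave 3711 and 3766 under siRNA 3488, 3438 and 3358 under siRNA 2600 and 3737, 3704 and 3887 under the scrambled siRNA, a change of -0.01 ± 0.06 (adjusted p = 0.895). Neither was called, and 1379737_a_at changed by -0.23 ± 0.07 (adjusted p = 0.0576). Set against the brightest, 1395092_at differed by -0.91 ± 0.10 (adjusted p = 0.00591). For Rbm5 the brightest probe set, 1372251_at, gave 3866 and 4194 under siRNA 3488, 3805 and 3760.0 under siRNA 2600 and 4006, 4106 and 4270.1 under the scrambled siRNA, with overlapping groups and a change of -0.04 ± 0.06 (adjusted p = 0.741). From it 1382749_at differed by -0.64 ± 0.10 (adjusted p = 0.0258) and 1398595_at by -0.93 ± 0.18 (adjusted p = 0.0385).

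**Figure D4:**
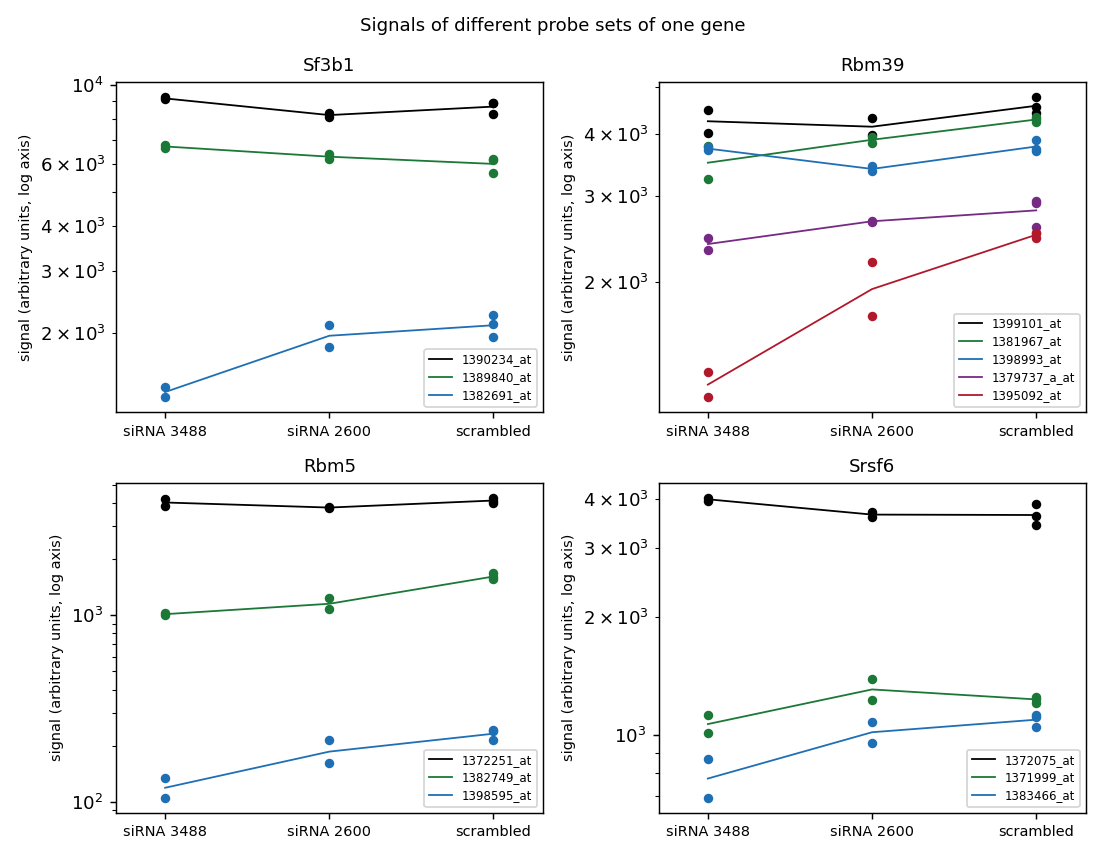
Signals of every tested probe set of Sf3b1, Rbm39, Rbm5 and Srsf6 (vertical log axes, arbitrary units, ranges differing between panels) by group (horizontal axes); points are arrays and lines join the group means of log2 signals. With siRNA 3488 the lowest line of each panel changed by -1.01 to -0.50 on the log2 scale against the control, and the uppermost by -0.10 to 0.13.

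Srsf6 showed the same arrangement without reaching the threshold of the pair test. Its probe set 1383466_at gave 692 and 868 under siRNA 3488, 957 and 1082 under siRNA 2600 and 1123, 1048 and 1115 under the scrambled siRNA and fell, with a change of -0.50 ± 0.10 (adjusted p = 0.0133), whereas the brightest, 1372075_at, gave 3949.5 and 4022 under siRNA 3488, 3697 and 3591 under siRNA 2600 and 3423, 3883 and 3614 under the scrambled siRNA, a change of 0.13 ± 0.07 (adjusted p = 0.205). They differed by -0.63 ± 0.13 (adjusted p = 0.0536). The third, 1371999_at, changed by -0.21 ± 0.08 (adjusted p = 0.109). Snrpd1 disagreed most: against the rise of 1379320_at, its brighter probe set 1383107_at gave 1025 and 787 under siRNA 3488, 1279 and 931 under siRNA 2600 and 1042, 1046 and 995 under the scrambled siRNA, a change of -0.19 ± 0.14 (adjusted p = 0.371) with overlapping groups, and the difference was 1.06 ± 0.31 (adjusted p = 0.103). Rbm15 probe set 1390576_at, the brighter, changed by -0.13 ± 0.08 (adjusted p = 0.276), and 1395129_at differed from it by -0.73 ± 0.21 (adjusted p = 0.0968). The Sf3a1 probe sets changed by -0.20 ± 0.15 (adjusted p = 0.378) and 0.43 ± 0.24 (adjusted p = 0.253), with a difference of 0.63 ± 0.24 (adjusted p = 0.191), and those of Rbm27 by 0.17 ± 0.16 (adjusted p = 0.493), -0.37 ± 0.12 (adjusted p = 0.0667) and -0.40 ± 0.23 (adjusted p = 0.269). None of these pairs was called. With siRNA 2600, 0 of the 33 pairs were called by limma, against 0.0743% of all pairs, and 2 had an unadjusted p under 0.05.

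With siRNA 2600, 2 of the 102 probe sets were called, 1 in each direction; over all tested probe sets 0.548% rose and 0.483% fell. Lsm2 rose by 0.42 ± 0.08 (adjusted p = 0.0334), and Rbm5 1382749_at fell, with a change of -0.49 ± 0.08 (adjusted p = 0.0241). In both genes the 2 siRNA 2600 arrays stood clear of the control arrays on the same side as the siRNA 3488 arrays. The class medians were 0.06 for the core, -0.06 for SR proteins and -0.07 for Rbm regulators, and the last pair turned to 0.02 and 0.01 under median centring. The Lsm5 arrays, at 1909.5 and 2074 under siRNA 2600 and 1539.8, 1699.6 and 1535 under the scrambled siRNA, also stood apart, but its change of 0.32 ± 0.09 (adjusted p = 0.116) was not called. Neither call was made without siRNA 2600 replicate 2 or without any 1 of the control arrays, and without replicate 1, the array that stood among the controls, 2 splicing probe sets were called lower.

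Taking both siRNAs together against the control, the same 2 probe sets were called, Lsm2 higher at 0.48 ± 0.07 (adjusted p = 0.0472) and Rbm5 1382749_at lower at -0.58 ± 0.08 (adjusted p = 0.0472); 0.102% of all tested probe sets rose and 0.043% fell. An unadjusted p under 0.05 was reached by 26 of the 102 (25.5%), where 17.8% of all tested probe sets reached it. Lsm2 and Rbm5 1382749_at lost their calls when any array other than siRNA 2600 replicate 1 was left out, and without that array 5 were called higher and 7 lower. The comparison shares its control arrays with the single-siRNA ones.

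Between the siRNAs, 5 probe sets differed, 2 higher and 3 lower with siRNA 3488 than with siRNA 2600; over all tested probe sets 2.84% were higher and 3.17% lower. Snrpf was higher by 0.51 ± 0.07 (adjusted p = 0.0104) and Srsf5 by 0.25 ± 0.06 (adjusted p = 0.0453). Lower were Rbm39 1395092_at, with a difference of -0.65 ± 0.11 (adjusted p = 0.0148), Sf3b1 1382691_at, with -0.53 ± 0.09 (adjusted p = 0.0169), and Rbm12b, with -0.42 ± 0.10 (adjusted p = 0.0383). Rbm12b, an RNA-binding protein, gave 439.8 and 439 under siRNA 3488, 600.2 and 577 under siRNA 2600 and 485, 490.4 and 485 under the scrambled siRNA, so that its siRNA 3488 arrays lay below and its siRNA 2600 arrays above the control arrays. The calls of Srsf5 and Rbm12b were lost whichever of the 7 arrays was left out, with differences of 0.22 to 0.28 and -0.45 to -0.39, and those of Snrpf, Rbm39 1395092_at and Sf3b1 1382691_at in 2 of the 7 cases. For Lsm2 and Rbm5 1382749_at the differences of 0.11 ± 0.08 (adjusted p = 0.482) and -0.19 ± 0.09 (adjusted p = 0.226) were not called, with 95% intervals of -0.08 to 0.29 and -0.38 to 0.01. None of the 102 was called in this comparison when siRNA 3488 replicate 2 or siRNA 2600 replicate 1 was left out; the number called higher was 8 without siRNA 2600 replicate 2, 4 without siRNA 3488 replicate 1 and 1 without any 1 control array.

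Other genes of the pathway, in lists chosen with earlier results of these data known, are set beside the 6.89% of all tested probe sets that rose with siRNA 3488 and the 8.74% that fell. Among 38 tested probe sets of further snRNP proteins 3 rose (7.89%, near the share over all) and none fell (median 0.06). Txnl4a, of the U5 particle, gave 2166 and 2314 with siRNA 3488 against 1674, 1631 and 1699.8 with the control, a change of 0.42 ± 0.07 (adjusted p = 0.00685). Snrnp200, the helicase that unwinds U4 from U6, rose by 0.40 ± 0.07 (adjusted p = 0.00755) and U2af2, which binds the polypyrimidine tract, by 0.29 ± 0.07 (adjusted p = 0.0258). Among 17 probe sets of snRNP assembly 3 rose (17.6%), led by Gemin6 of the SMN complex with 509.6 and 459 under siRNA 3488 against 264, 209 and 220.2 under the scrambled siRNA, a change of 1.07 ± 0.19 (adjusted p = 0.00755). Strap and Clns1a, which also serve the loading of Sm proteins, rose by 0.26 ± 0.06 (adjusted p = 0.0153) and 0.24 ± 0.07 (adjusted p = 0.0349). None of the 17 fell, and the list's median was 0.02.

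In the other splicing lists falls outnumbered rises, as they did over all tested probe sets. Among 41 probe sets of catalytic factors and helicases 3 rose (7.32%) and 6 fell (14.6%; median -0.13). Ddx39a and Ddx39b, helicases of splicing and export, rose by 0.44 ± 0.07 (adjusted p = 0.00456) and 0.42 ± 0.07 (adjusted p = 0.00563), and Ddx17 and Prpf38b fell, at -0.36 ± 0.07 (adjusted p = 0.0106) and -0.36 ± 0.08 (adjusted p = 0.0151). Among 49 probe sets of SR-related and exon junction proteins, Rbm8a included, 2 rose (4.08%) and 9 fell (18.4%; median -0.11), with Eif4a3, the helicase of the exon junction complex, higher at 0.38 ± 0.08 (adjusted p = 0.0113) and Pnn and Scaf11 lower at -0.42 ± 0.07 (adjusted p = 0.00529) and -0.41 ± 0.08 (adjusted p = 0.0104). The kinases that phosphorylate SR proteins, with 1 phosphatase regulator, held 5 falls (31.2%) and no rise among 16 probe sets. The median of this list was -0.05, near the -0.06 of all tested probe sets. Srpk1 gave 245 and 203 under siRNA 3488, 332 and 282 under siRNA 2600 and 358, 372 and 379 under the scrambled siRNA, a change of -0.73 ± 0.14 (adjusted p = 0.00879), and Prpf4b fell by 0.60 with an adjusted p of 0.00641. Among 91 probe sets of hnRNP and other regulators 10 rose (11%) and 11 fell (12.1%), Khsrp higher at 0.95 ± 0.19 (adjusted p = 0.0107) and Mbnl1 lower at -0.53 ± 0.10 (adjusted p = 0.00939). For comparison, 21 of 23 cell cycle probe sets rose and none fell (median 0.61; 0.60 after quantile normalization), and 40 of 47 ribosomal protein probe sets rose (median 0.44; 0 after quantile normalization).

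The siRNA 3488 calls leaned on single arrays. Without its replicate 2 the calls were 2 higher and 4 lower, without control replicate 1 they were 5 and 4, without control replicate 2 9 and 5, and without control replicate 3 10 and 6, counting shared calls with the full set; each of the 25 probe sets kept its direction in all 7 cases. In the same fits the 13 rises of the core numbered 2 without siRNA 3488 replicate 2 and 5 without control replicate 1, and the 7 falls of the Rbm class 2 without siRNA 3488 replicate 2 and 3 without control replicate 1 or 2. Snrpf and Lsm2 among the rises, and Rbm39 1395092_at, Rbm5 1382749_at and Sf3b1 1382691_at among the falls, were called whichever array was left out.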

How the data were processed

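RNA of 7 cultures of NRK-52E cells was measured on 1 Affymetrix array each, grouped by title. The authors deposited a linear intensity (arbitrary units) for each probe set, with GCOS 1.4 as the software, per the submitters' processing notes. For background, summary and scaling the settings were not given in the sources used here. On each array the 2% trimmed mean was 500.1 to 500.2, so the values had been scaled. Every column was used (0 left over).

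Signals under 1 were set to 1, log2 was taken, and 57 control probe sets were left out. The 60% with the highest mean log2 value (above 6.09) were tested with limma 3.58.1 in R 4.3.3 (lmFit, eBayes with an intensity trend), Benjamini-Hochberg adjusted over all 18625. The pooled siRNA arrays were set against the control in a model of 2 groups; the other comparisons came from a fit of 3 groups sharing 1 spread. For probe sets of 1 gene, the log2 difference of each from the brightest was tested over 4040 pairs. Fits were tested on simulated data.

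Symbols came from the platform annotation table: 20826 probe sets had 1 symbol, 436 several and 9780 none. All 123 probe sets were found by Entrez identifier in RefSeq's GRCr8 table, with 0 symbols changed. A further 10 probe sets, 7 of them tested, carry a matching symbol among several and were not taken as members. With siRNA 3488 the tested ones shared by Lsm6 (change 0.1), Snrpc (0.12), Rbm4 (0.06) and Rbm25 (0.08) were not called. Members and lists were chosen with earlier results of these data known. Named were, per comparison, the 12 largest rises and falls among called members, the brightest probe set of each class, the 8 genes whose probe sets disagreed most, Rbm5 and Adamts16, and the 4 of each further list with the lowest p.

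Alternatives were quantile normalization, median centring, cyclic loess, no filter, the upper 40%, an offset of 32, no intensity trend, the replicate number as a block, another choice of groups for the fit, and omission of single arrays in turn. Per the series design the cultures were independent, though pairing by replicate number could not be decided. The p-values set each change against the spread between cultures within groups. That spread was pooled over the groups and moderated across probe sets by eBayes.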

Additional observations from a re-analysis of the deposited data

Results flagged for a closer look

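These probe sets behaved differently with the 2 siRNAs, as log2 differences of siRNA 3488 minus siRNA 2600. In a direct test over all probe sets by limma, Rbm39 1395092_at differed by -0.65 (adjusted p = 0.0148), Sf3b1 1382691_at by -0.53 (0.0169), Snrpf by 0.51 (0.0104), Rbm12b by -0.42 (0.0383) and Srsf5 by 0.25 (0.0453). The last pair, Rbm12b and Srsf5, lost the call whichever array was left out. For Rbm39 and Sf3b1, the other probe sets of the same genes differed by -0.16 to 0.16 and were not called.

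For Sf3b1 1390234_at (0.16) and Rbm15 1390576_at (-0.19), the arrays of one siRNA all lay on one side of the control mean and those of the other siRNA on the opposite side. This opposition itself was not tested; the differences had adjusted p of 0.178 and 0.207 by limma and were not called. These are the 2 uncalled cases among the 38 probe sets of the rule for named genes. Over all 102 tested probe sets 10 showed such opposition, 2 of them called (Rbm12b and Srsf5). The other 6 were Lsm12 1373229_at (0.42, adjusted p = 0.106), Lsm7 (0.39, 0.0728), Lsm11 1389726_at (0.21, 0.612), Rbm34 1389065_at (-0.17, 0.282) and both Srsf1 probe sets (0.16, 0.164, and -0.27, 0.138), which by limma were not called.

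The test for a single array standing apart needs at least 4 arrays, more than any group holds. Applied to the 4 siRNA arrays of both siRNAs together, it found 0 such arrays among the 38 probe sets.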

How the results depend on the processing

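With siRNA 3488, all 9 falls kept their direction under every alternative in which they were tested, and 13 of the 16 rises did under quantile normalization. The 16 rises were 9 after quantile normalization, 10 after cyclic loess and 2 without an intensity trend, and 2 to 19 when 1 array was left out; the 9 falls were 4 without the trend and 4 to 12 by array. Core rises (13) were 2 without the trend and 2 to 15 by array. Rbm falls (7) were 4 after median centring, 3 without the trend and 2 to 9 by array. Called pairs (4) were 1 after quantile normalization, cyclic loess or no filter, 0 without the trend and 0 to 6 by array.

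With siRNA 2600, the 1 rise was 0 with no filter, no trend or the compared groups alone, and 0 to 1 by array; the 1 fall was 2 after quantile normalization, 0 after median centring or without the trend, and 0 to 2 by array. With both siRNAs, rises and falls were 0 with no filter or no trend and 5 each in the fit of 3 groups; falls were 0 after median centring, and by array rises were 0 to 5 and falls 0 to 7. Between the siRNAs, the 2 rises were 1 after quantile normalization, median centring, cyclic loess or no filter, 5 among the upper 40%, 0 without the trend or with the compared groups alone and 0 to 8 by array; the 3 falls were 0 without the trend or with those groups alone, and 0 to 4 by array.

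Whether replicate numbers paired the cultures could not be decided. Same-numbered deviations correlated at 0.143 between the siRNAs for either replicate number, and at -0.0483 to 0.163 against the control. The replicates of each siRNA mirror each other around their mean, so the siRNA value is the same for either number by construction. With the replicate block, calls were 0 in both directions for both siRNAs together and for siRNA 2600, and 8 higher between the siRNAs.

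Single values that turned sign were, for siRNA 3488, Rbm3 (-0.06), Snrpe (-0.03), Srsf5 (0.00), Sf3b1 1389840_at (-0.04) and Sf3b1 1390234_at (-0.20) after quantile normalization; Sf3b1 1389840_at (-0.01) and 1390234_at (-0.14) after cyclic loess; Rbm39 1398993_at after median centring (0.08), with the block (0.01) and without control replicate 3 (0.01); and Rbm5 1372251_at after median centring (0.06; 0.01 with both siRNAs) and by array (-0.09 to 0.02, positive without siRNA 3488 replicate 1). Adamts16 (0.25) ran from -0.31 to 1.05 by array. Over all probe sets, siRNA 3488 called 2911, 1839 after quantile normalization, 1949 after cyclic loess and 591 without the trend, and median centring called 1728 higher and 576 lower against 1283 and 1628; both siRNAs called 27, 50 after quantile normalization, 66 after median centring, 1378 in the fit of 3 groups, and 0 with no filter, no trend or the block, where 2995 and 2107 probe sets had an unadjusted p under 0.05 in the last pair. The cause of these changes was not tested.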
